A study of Mus musculus with 192 samples.

Results

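The 39 genes described here encode the machinery that moves calcium across neuronal membranes: voltage-gated calcium channels and their auxiliary subunits, the release channels of the intracellular calcium store, and the calcium pumps. They were defined by symbol, as all protein-coding genes of the count table named Cacna, Cacnb, Cacng, Ryr, Atp2a or Atp2b, plus Itpr1, Itpr2 and Itpr3, and make up 39 of 21397 protein-coding genes. RNA was sequenced from the hippocampus of 192 mice, 96 zQ175 and 96 wild type (WT). The zQ175 line models Huntington's disease through a knock-in Htt allele with an expanded CAG repeat. Mice were untreated, or received a non-targeting small interfering RNA (NTC), the siRNA HTT-10150 against full-length HTT, or HTT-634 combined with HTT-486 against HTT1a (HTT-634.486), the short Htt product that terminates within intron 1. In the regimen 2[4]6, dosing was at 2 months and the tissue was taken at 6 months of age. In 6[4]10 the ages were 6 and 10 months, and in 2.6[8]10 mice were dosed at 2 months and again at 6 months and the tissue was taken at 10 months. The 3 regimens, 2 genotypes and 4 treatments gave 24 groups of 8 mice, 4 per sex. All zQ175 groups carry the knock-in allele and all WT groups lack it, whatever the siRNA. The sources used here do not give strain background, zygosity, repeat length, siRNA dose or route.

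Voltage-gated calcium channels open on depolarization. Their pore is an alpha1 subunit (Cacna1 genes), and alpha2delta (Cacna2d) and beta (Cacnb) subunits set its surface level and gating. Several gamma genes (Cacng2, Cacng3, Cacng4, Cacng5, Cacng7 and Cacng8) encode transmembrane AMPA receptor regulatory proteins (TARPs), which traffic and tune glutamate receptors at synapses. Inside the cell, the SERCA pumps (Atp2a) load the endoplasmic reticulum with calcium, and the IP3 receptors (Itpr) and ryanodine receptors (Ryr) release it. The PMCA pumps (Atp2b) expel calcium across the plasma membrane. In hippocampal pyramidal cells and granule cells these proteins shape transmitter release, spine calcium and synaptic plasticity.

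Promoter sequence was available for 29 of the 39 genes, in 41 windows of 250 bases upstream of a RefSeq start (GRCm38.p6). The GC box, GGGCGG on either strand, was present in 22 of the 41 windows (53.7%), against 32.7% of 32851 windows of the same length from all genes. The E-box CACGTG was in 1 window (2.44%, against 6.02%), the CRE half-site TGACG in 5 (12.2%, against 17.8%) and TATAAA in 1 (2.44%, against 12.4%). A match describes letters only, and windows of 1 gene can overlap. The 120 bases upstream of the start are shown for 4 genes with contrasting changes in zQ175 mice: 3 that fell (Atp2b1, Cacna2d3 and Ryr2) and 1 that was higher (Cacng7). Each is on the gene's strand, and capitals mark a GC box in either orientation. Atp2b1 is shown at the second of its 2 starts (chr10:98915032-98915151, plus strand), Cacna2d3 at chr14:29721865-29721984 (minus strand), Ryr2 at chr13:12106946-12107065 (minus strand) and Cacng7 at chr7:3332705-3332824 (plus strand).
Atp2b1: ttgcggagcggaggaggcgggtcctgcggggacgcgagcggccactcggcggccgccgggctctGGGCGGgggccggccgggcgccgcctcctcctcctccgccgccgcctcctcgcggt
Cacna2d3: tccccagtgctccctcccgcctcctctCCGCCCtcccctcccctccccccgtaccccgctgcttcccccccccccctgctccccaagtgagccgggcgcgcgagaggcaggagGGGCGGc
Ryr2: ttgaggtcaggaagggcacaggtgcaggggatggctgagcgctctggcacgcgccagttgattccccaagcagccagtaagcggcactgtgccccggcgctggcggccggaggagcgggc
Cacng7: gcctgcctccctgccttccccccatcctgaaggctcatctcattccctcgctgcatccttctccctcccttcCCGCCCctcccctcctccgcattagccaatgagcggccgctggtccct

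Total counts per library ran from 8441632 to 55955529 in 2[4]6 (median 27722736), from 13376471 to 41269383 in 6[4]10 (median 24458656) and from 12999992 to 65748954 in 2.6[8]10 (median 16523749). The targeted gene was lower under HTT-10150: Htt changed by -0.44 to -0.92 on the log2 scale against NTC in zQ175 mice, called in all 3 regimens, and by -0.55 to -1.27 in WT mice, where 6[4]10 missed the threshold (adjusted p = 0.16). Under HTT-634.486 the log2 change of Htt lay between -0.07 and 0.10 and was not called (lowest adjusted p = 0.804); counts per gene cannot tell HTT1a from the full-length transcript. Sex-linked transcripts were at odds with the labelled sex in 3 libraries, 2 in the zQ175 HTT-10150 group of 6[4]10 and 1 in the WT NTC group of 2.6[8]10. Choroid plexus markers summed to more than 1000 counts per 1000000 counts of the library (CPM) in 19, 12 and 13 libraries of the 3 regimens, and were called in neither direction between genotypes.

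A WT library of 2.6[8]10 stood apart from the other 191. In the library labelled 2.6[8]10 WT HTT-10150 female_1, 6 striatum markers summed to 5985 CPM, against 60.1 to 273 in the rest. The sums of its hippocampal marker lists did not move in 1 direction, but several single genes were far below the rest. Slc17a7 was at 29.1 CPM against 995 to 1768. CA1 markers summed to 319 CPM (355.6 to 775.1 in the rest), and Neurod6, a transcription factor of pyramidal cells, was at 3.18 CPM against 82.7 to 268. CA2 markers summed to 1369 CPM, above the 153.2 to 354.6 of the rest, and GABAergic markers to 1711 CPM, above theirs as well (524.8 to 953.9). The sums for CA3 (170.3 CPM, 164.4 to 309 in the rest) and dentate granule cells (314 CPM, 271.3 to 788.9) lay within the range. Yet the dentate markers Prox1 (32.4 CPM, 102.2 to 195.9 in the rest), C1ql2 (1.62 CPM, 21.7 to 165.2) and Lct (0.353 CPM, 10.6 to 79) lay below every other library. The dentate sum thus came mostly from the other markers of that list. In this library 18 of the 39 genes lay above, and 14 below, all other 7 mice of the group. The share of all genes outside the range of those 7 mice is not given here, so the counts describe the library and are no trait of the set. Itpr1 was at 1139 CPM (other 7 mice at most 496) and Cacng4 at 179 CPM (at most 29.6). Cacna1g was at 10.2 CPM (at least 51.6 in the other 7) and Ryr2 at 92.4 CPM (at least 279). The averaged genotype changes of the genes called in all 3 regimens are therefore also given without this library in 2.6[8]10. Other values of 2.6[8]10 include it unless stated.

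**Figure D1:**
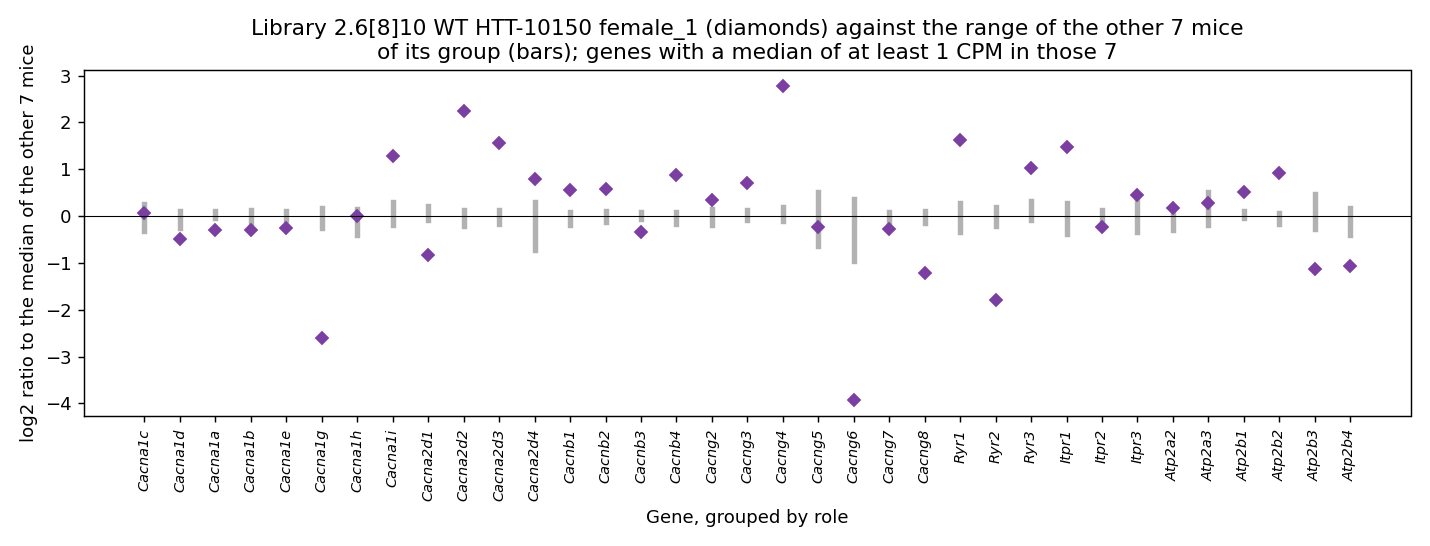
Log2 ratio of each gene's level in the library with striatal markers (2.6[8]10 WT HTT-10150 female_1, diamonds) to the median of the other 7 mice of its group, with grey bars for the range of those 7 mice; genes with a median of at least 1 CPM in the 7 are shown, grouped by role. Itpr1 (1139 CPM) and Cacng4 (179 CPM) lie above the range of the other mice, and Cacna1g (10.2 CPM) and Ryr2 (92.4 CPM) below it.

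Levels were compared between genes as CPM per kilobase of exon in the 24 untreated WT mice. The housekeeping SERCA isoform Atp2a2 was the most abundant at 132 ± 8.46 (SD, n = 24), followed by the plasma membrane pump Atp2b1 at 68.1 ± 4.08, the TARPs Cacng7 at 64.9 ± 4.89 and Cacng8 at 62.4 ± 5.83, and the beta subunit Cacnb3 at 43.5 ± 4.43. Atp2b1, Cacng7 and Cacng8 did not differ beyond their spread. For scale, the median protein-coding gene with at least 1 CPM (13502 genes) had 5.71 CPM per kilobase.

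Within a role, levels differed widely. Among pores the R-type gene Cacna1e led at 19.6 ± 1.43 CPM per kilobase, followed by the T-type gene Cacna1h at 15.6 ± 2.17 and the P/Q-type gene Cacna1a at 15 ± 1.29, which overlapped. The L-type genes Cacna1c (5.69 ± 0.437) and Cacna1d (4.34 ± 0.256) were lower. Of the alpha2delta genes Cacna2d1 was highest at 17 ± 1.13 and Cacna2d4 lowest at 0.224 ± 0.0637. Itpr1 (27 ± 1.96) exceeded Itpr2 (2.08 ± 0.141) and Itpr3 (0.626 ± 0.123), and Ryr2 (12.6 ± 0.858) exceeded Ryr3 (6.3 ± 0.528) and Ryr1 (1.96 ± 0.278). The muscle and retina genes stood at the bottom: Atp2a1 at 0.146 ± 0.189, Cacna1s at 0.0628 ± 0.0305, Cacng1 at 0.0251 ± 0.0309 and Cacna1f at 0.0193 ± 0.00999. Cacng1 and Cacna1f did not pass the filter on low counts in any regimen, which left 37 genes for testing.

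**Figure D2:**
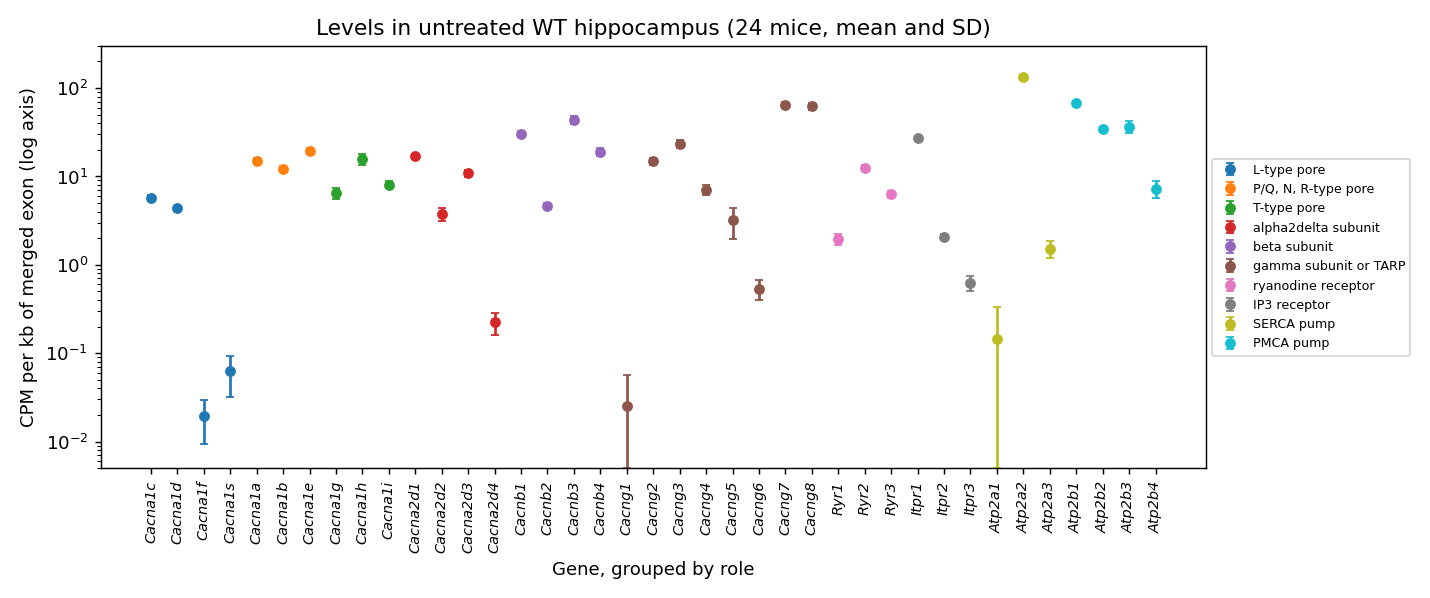
Mean level of the 39 genes in untreated WT mice (n = 24), in CPM per kilobase of merged exon on a log axis, grouped and coloured by role, with bars for the SD. Atp2a2 leads at 132 and Cacna1f is lowest at 0.0193; the SD bars of Cacng1 and Atp2a1 reach below the axis and end there.

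The knock-in allele was associated mostly with lower RNA of these genes. Averaged over the 4 treatments (32 zQ175 against 32 WT mice), 14 of 37 genes were lower and 1 higher in 2[4]6, 19 lower and 5 higher in 6[4]10, and 17 lower and 3 higher in 2.6[8]10 (16 and 4 without the library with striatal markers). A gene is called at an adjusted p under 0.05 from the quasi-likelihood test of edgeR. Over all genes tested, 21.5% were called in 2[4]6 (10.9% lower, 10.6% higher), 41.3% in 6[4]10 (19.8% lower, 21.5% higher) and 32.1% in 2.6[8]10 (16.9% lower, 15.2% higher). Without the library with striatal markers 35.6% of all genes were called in 2.6[8]10. Among the calcium genes the share called lower was 37.8%, 51.4% and 45.9%, above the share over all genes in each regimen, and the share called higher was 2.7%, 13.5% and 8.11%, below it. The genes of the set were measured at higher counts than most, with a median of 91, 88.3 and 87.7 CPM against 17.9, 18.3 and 19.9 CPM over all genes tested; the part of level in these shares was not tested. The set was taken up with earlier results of these data known, so these shares are a description. The median log2 change of the 37 genes was -0.065, -0.102 and -0.129 (-0.09 without the library with striatal markers), where the median over all genes was at most 0.01 from 0. In 2[4]6 the count of 15 calls fell to 8 without the mice numbered 3 and to 9 without those numbered 1.

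In all 3 regimens 12 genes were lower: the pumps Atp2a2, Atp2b1 and Atp2b2, the release channels Itpr1, Ryr2 and Ryr3, the pore Cacna1e, the auxiliary subunits Cacna2d3 and Cacnb2, and Cacng3, Cacng6 and Cacng8. Cacna1g, which encodes a T-type pore, was higher in all 3. In all, 21 genes were called lower in at least 1 regimen and 5 higher, 0 were called in both directions, and 11 were called in none. The latter were Atp2a1, Atp2a3, Atp2b3, Cacna1c, Cacna1s, Cacna2d4, Cacnb3, Cacnb4, Cacng4, Cacng5 and Itpr3. The share of all genes called in all 3 regimens, or in any, is not given here, so these counts only describe the set. Without the library with striatal markers Cacng3 lost its call in 2.6[8]10 (-0.08 ± 0.03, SE; adjusted p = 0.0626) and Cacnb4 gained one (0.08 ± 0.03; adjusted p = 0.0481). In bulk tissue, fewer cells of a type and less RNA per cell cannot be told apart.

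**Figure D3:**
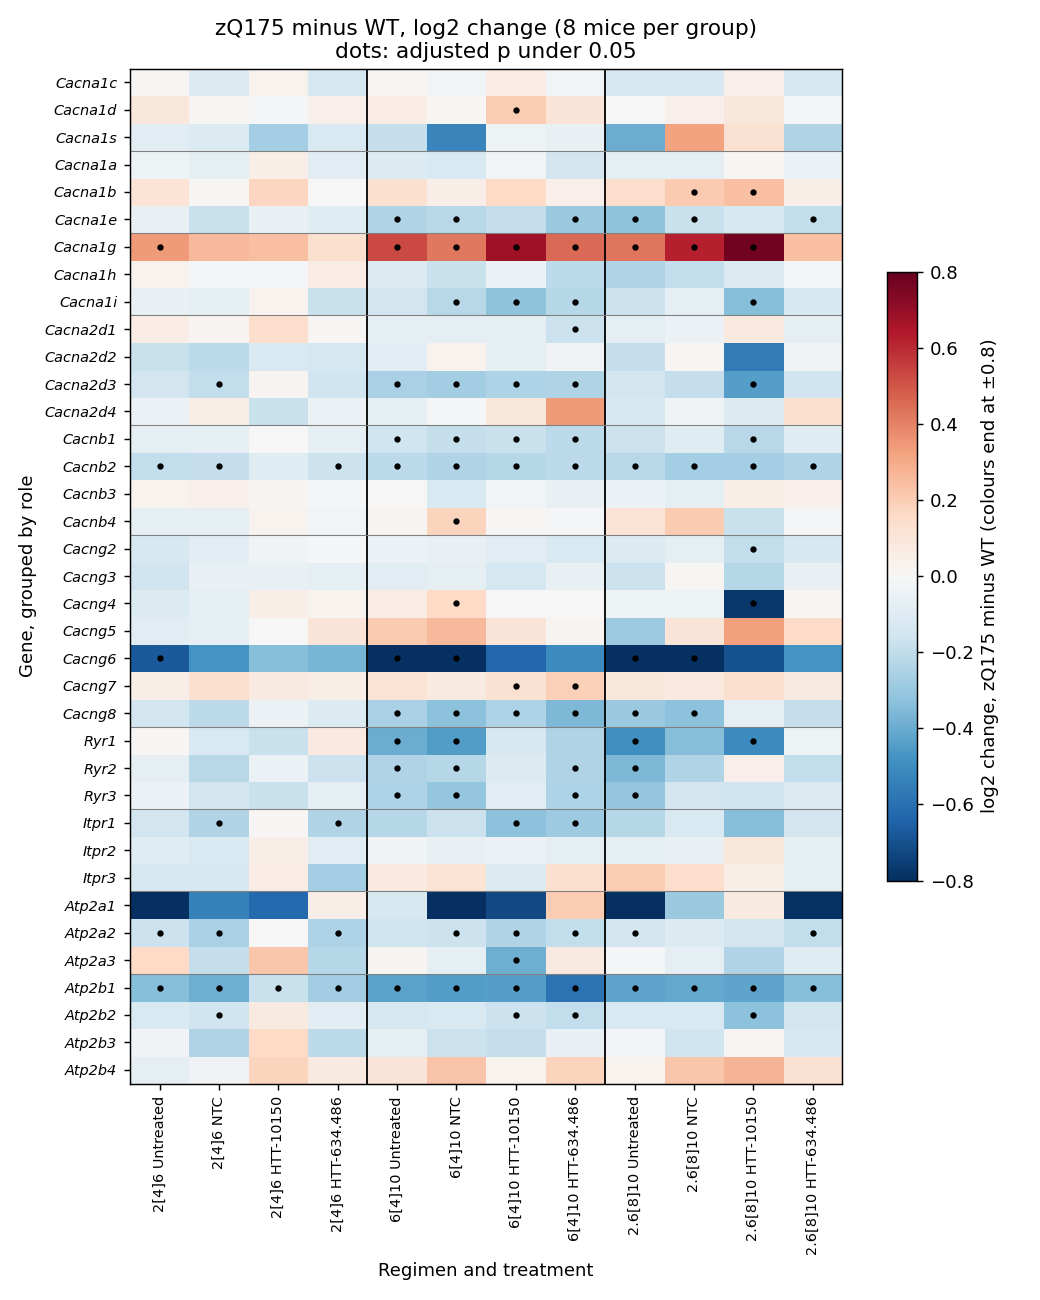
Log2 change of each tested gene (rows, grouped by role) between zQ175 and WT mice, as colour, within each regimen and treatment (columns, 8 mice per group); a dot marks a call at an adjusted p under 0.05, and colours end at 0.8 in either direction. Atp2b1 is called lower in all 12 contrasts and Cacna1g higher in 8, and calls are sparse in 2[4]6.

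Markers of hippocampal cell types moved with genotype as well. Their counts stand beside the share of all genes called lower (10.9%, 19.8% and 16.9% in the 3 regimens) and higher (10.6%, 21.5% and 15.2%). Of 7 dentate granule cell markers, 3 were lower and 2 higher in 2[4]6, 5 lower and 1 higher in 6[4]10, and 5 lower in 2.6[8]10. Their summed level in 6[4]10 had a median of 609 CPM (454 to 789) in WT and 453 CPM (271 to 538) in zQ175 mice. CA1 markers had a median of 587 CPM (497 to 775) in WT and 474 CPM (356 to 548) in zQ175 mice of 6[4]10, with 4 of 5 lower and 1 higher. In 2[4]6, 3 CA1 markers were lower and 0 higher. In 2.6[8]10, 2 were lower and 1 higher (4 and 1 without the library with striatal markers). Of 8 GABAergic markers 7, 6 and 7 were lower in the 3 regimens (6 in 2.6[8]10 without the library with striatal markers). Of 7 astrocyte markers 4 were lower in each. All 6 microglia markers were higher in 6[4]10, where their sum had a median of 344 CPM (275 to 389) in WT and 370.2 CPM (321 to 475) in zQ175 mice. In 2[4]6 only 1 microglia marker was higher, and in 2.6[8]10 0 were (1 without the library with striatal markers). The part of all these markers in the changes of the calcium genes was not tested.

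The pumps that clear calcium from the cytosol were led by Atp2b1, the most abundant plasma membrane pump of this tissue (ENSMUSG00000019943, chromosome 10: 98914406-99026143, GRCm38). In 2[4]6 its lowest, median and highest levels were 828, 1022 and 1139 CPM in WT and 731, 825 and 1019 CPM in zQ175 mice. The 6[4]10 levels were 797, 1005 and 1302 CPM in WT and 555, 720.2 and 873 CPM in zQ175 mice. The groups overlapped only in part: 17 of 32 zQ175 mice in 2[4]6, and 28 of 32 in both 10-month regimens, lay below every WT mouse of their regimen. The log2 change was -0.30 ± 0.03 (SE; adjusted p = 3.37e-13) in 2[4]6, -0.48 ± 0.03 (adjusted p = 3.09e-18) in 6[4]10 and -0.40 ± 0.03 (adjusted p = 6.08e-16) in 2.6[8]10, where it was -0.37 ± 0.03 without the library with striatal markers. Atp2b1 was the 1 gene of the set called within each of the 12 combinations of regimen and treatment.

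Atp2b2, a plasma membrane pump of fast-signalling neurons, also fell. Its WT and zQ175 medians were 426 and 407 CPM in 2[4]6, 419 and 373 CPM in 6[4]10 and 426 and 387 CPM in 2.6[8]10. The log2 changes were -0.08 ± 0.02 (adjusted p = 0.0152), -0.16 ± 0.03 (6.33e-07) and -0.18 ± 0.04 (0.000138), the last -0.13 ± 0.02 without the library with striatal markers. The first missed the threshold without the mice numbered 1 or 3. Atp2b4, another isoform of the family, moved the opposite way in 6[4]10 (0.14 ± 0.05, adjusted p = 0.0337) and was not called in 2[4]6 (0.04 ± 0.07) or 2.6[8]10 (0.16 ± 0.07, adjusted p = 0.0588). Atp2b3, on the X chromosome, was not called, with changes between -0.12 and -0.07.

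Atp2a2, the pump that refills the endoplasmic reticulum, had lowest, median and highest levels of 701, 809.5 and 928 CPM in WT and 547, 722 and 836 CPM in zQ175 mice of 2[4]6. Those of 6[4]10 were 594, 763 and 888 CPM in WT and 496, 665 and 771 CPM in zQ175 mice. The ranges overlapped, with 12, 5 and 3 zQ175 mice of 32 below every WT mouse in the 3 regimens. The log2 changes were -0.17 ± 0.02 (adjusted p = 1.58e-07), -0.19 ± 0.03 (3.65e-07) and -0.15 ± 0.03 (4.83e-06; -0.14 ± 0.03 without the library with striatal markers). Atp2a2 lies on chromosome 5, 87.5 Mb from Htt; the other gene of the set on that chromosome, Cacna2d1, lies 18.4 Mb from it. Atp2a1 and Atp2a3, low in hippocampus, were not called in any regimen.

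**Figure D4:**
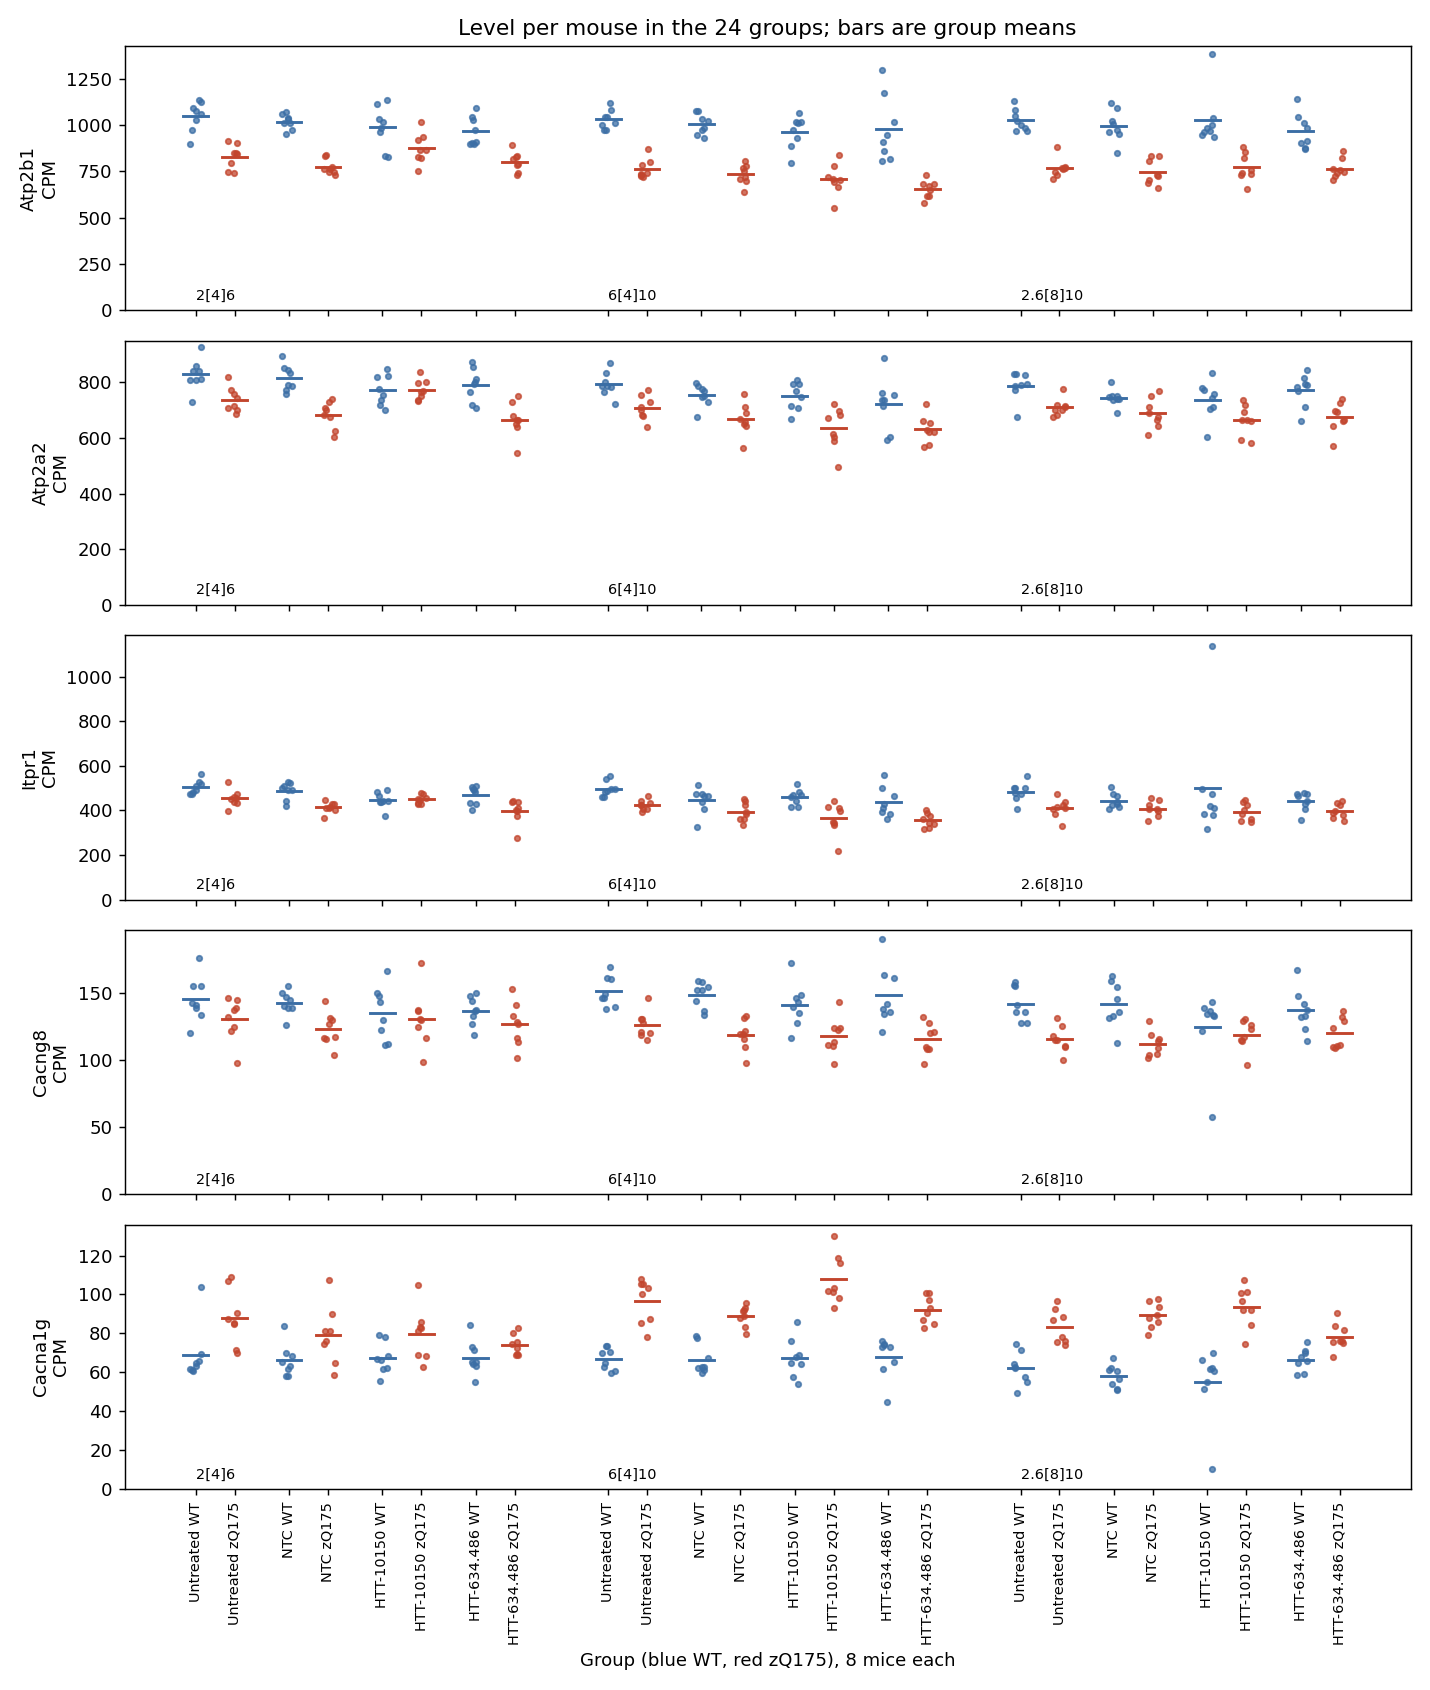
Level of Atp2b1, Atp2a2, Itpr1, Cacng8 and Cacna1g in each of the 192 mice, in CPM, by regimen, genotype and treatment (8 mice per group), with a line at each group mean. The zQ175 group means of Atp2b1 are below, and those of Cacna1g above, the WT means under every treatment, while the ranges of the other 3 genes overlap in most pairs of groups; 1 mouse of the 2.6[8]10 WT HTT-10150 group stands far from the others in several panels.

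Among the release channels, Itpr1, the IP3 receptor of pyramidal and Purkinje cells, fell in all 3 regimens. Its lowest, median and highest levels in 2[4]6 were 375.7, 486.5 and 563.2 CPM in WT and 278, 435 and 526 CPM in zQ175 mice. Levels in 6[4]10 were 325, 464 and 558 CPM in WT and 219, 393 and 466 CPM in zQ175 mice. Few mice fell outside the WT range: 3 of 32 zQ175 mice in each of these regimens, and 0 in 2.6[8]10, lay below every WT mouse. The log2 changes were -0.16 ± 0.03 (adjusted p = 7.1e-05), -0.26 ± 0.04 (1e-06) and -0.21 ± 0.06 (0.00568). Without the library with striatal markers, where Itpr1 was at its highest, the last was -0.13 ± 0.03 (0.00184). Itpr2 was called in 2[4]6 (-0.06 ± 0.02, adjusted p = 0.0245) and in neither other regimen, and Itpr3 was not called.

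All 3 ryanodine receptors were lower at 10 months. Ryr2, the most abundant of them in this tissue, had medians of 347 CPM in WT and 317 CPM in zQ175 mice of 2[4]6, 345 and 298 CPM in 6[4]10, and 338 and 290.2 CPM in 2.6[8]10. Its log2 changes were -0.13 ± 0.04 (adjusted p = 0.00667), -0.21 ± 0.04 (8.04e-06) and -0.19 ± 0.06 (0.00776; -0.22 ± 0.03 without the library with striatal markers, adjusted p = 3.83e-07). The groups overlapped, and without the mice numbered 1 or 3 the 2[4]6 change was not called; nor was the 2.6[8]10 change without those numbered 2 or 3, or with library number (a field of the library names, nested in genotype) as a random effect in limma-voom.

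Ryr3 changed by -0.11 ± 0.04 (adjusted p = 0.0154), -0.23 ± 0.03 (1.41e-08) and -0.18 ± 0.05 (0.00183; -0.13 ± 0.03 without the library with striatal markers). Its mean in 6[4]10 was 119.9 ± 11.3 CPM (SD, n = 32) in WT and 102.5 ± 10.3 CPM in zQ175 mice, with 12 of 32 zQ175 mice below every WT mouse. In 2[4]6 its call was lost without the mice numbered 2, 3 or 4. Ryr3 shares 916 exon bases with Aven on the other strand; the sources used here do not say whether the counting used strand. Ryr1, named for skeletal muscle, did not pass the test in 2[4]6 (-0.05 ± 0.04) and changed by -0.30 ± 0.05 (2.89e-07) in 6[4]10 and by -0.35 ± 0.08 (0.000276; -0.26 ± 0.05 without the library with striatal markers) in 2.6[8]10.

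The T-type pores, which open at low voltage, moved in opposite directions. Cacna1g (ENSMUSG00000020866, chromosome 11: 94408391-94474198, GRCm38) was at 54.7, 65.1 and 104 CPM (lowest, median, highest) in WT and 58.8, 80.6 and 109 CPM in zQ175 mice of 2[4]6. The 6[4]10 values were 44.6, 66.2 and 85.6 CPM in WT and 78.3, 94.4 and 129.8 CPM in zQ175 mice. At 10 months the groups separated for most mice: 26 of 32 zQ175 mice in 6[4]10 and 27 of 32 in 2.6[8]10 lay above every WT mouse, against 4 in 2[4]6. The log2 changes were 0.24 ± 0.05 (adjusted p = 0.00014), 0.52 ± 0.04 (1.81e-17) and 0.51 ± 0.07 (2.02e-08; 0.48 ± 0.04 without the library with striatal markers). Cacna1g was the largest rise among the 37 genes in each regimen.

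The other T-type pores were lower at 10 months and not called at 6 months. Cacna1i changed by -0.23 ± 0.04 (adjusted p = 4.42e-07) in 6[4]10 and by -0.18 ± 0.05 (0.00686) in 2.6[8]10, where the change without the library with striatal markers was -0.11 ± 0.03 (0.00549). Cacna1h changed by -0.14 ± 0.04 (0.00487) and -0.14 ± 0.04 (0.00864).

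Of the high-voltage pores, the R-type gene Cacna1e fell and the N-type gene Cacna1b was higher. Cacna1e had medians of 474 CPM in WT and 448 CPM in zQ175 mice of 2[4]6, 473 and 395 CPM in 6[4]10, and 455 and 396 CPM in 2.6[8]10. Its log2 changes were -0.10 ± 0.04 (adjusted p = 0.0384), -0.24 ± 0.04 (1.29e-07) and -0.21 ± 0.03 (1.09e-08; the same without the library with striatal markers). The 2[4]6 call was lost without the mice numbered 1, 3 or 4, and with library number as a random effect. Cacna1b, a presynaptic channel of transmitter release, missed the threshold in 2[4]6 (0.07 ± 0.03, adjusted p = 0.0697) and was higher by 0.10 ± 0.03 (0.00698) in 6[4]10 and by 0.16 ± 0.03 (4.95e-06) in 2.6[8]10, where 11 of 32 zQ175 mice lay above every WT mouse. The P/Q-type gene Cacna1a was lower in 6[4]10 (-0.10 ± 0.03, 0.00216) and the L-type gene Cacna1d was higher there (0.09 ± 0.02, 0.00109). Cacna1c, the main L-type gene of the brain, was not called, at -0.05 ± 0.04, 0.01 ± 0.04 and -0.09 ± 0.04.

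Among the subunits that escort the pore to the membrane, Cacnb2 and Cacna2d3 fell in all 3 regimens. Cacnb2 was at 53.3, 61.7 and 76.6 CPM (lowest, median, highest) in WT and 49.4, 55.4 and 62.1 CPM in zQ175 mice of 2[4]6. Its 6[4]10 levels were 48.2, 60.8 and 70.7 CPM in WT and 42.9, 51.4 and 60.6 CPM in zQ175 mice. The zQ175 mice clustered at the lower end of the WT range, with 13, 6 and 15 of 32 below every WT mouse in the 3 regimens. The log2 changes were -0.17 ± 0.02 (adjusted p = 2.66e-08), -0.22 ± 0.03 (1.19e-09) and -0.25 ± 0.03 (4.04e-09; -0.22 ± 0.03 without the library with striatal markers). After Atp2b1, Cacnb2 was called most often within treatments, in 11 of 12 contrasts.

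Cacnb1 changed by -0.18 ± 0.02 (5.55e-09) in 6[4]10 and by -0.15 ± 0.03 (0.000395) in 2.6[8]10 and was not called in 2[4]6. Cacnb3, the most abundant beta gene per kilobase, was not called in any regimen, with changes between -0.05 and 0.02. Cacna2d3 had medians of 95.2 CPM in WT and 86.9 CPM in zQ175 mice of 2[4]6, 90.7 and 78.5 CPM in 6[4]10, and 87.6 and 78.7 CPM in 2.6[8]10. Its log2 changes were -0.12 ± 0.03 (0.00119), -0.26 ± 0.03 (3.29e-10) and -0.23 ± 0.06 (0.00199); without the library with striatal markers, where it stood at 247.2 CPM, the last was -0.15 ± 0.03 (3.44e-05). Its call in 2[4]6 was lost without the mice numbered 3. Cacna2d1, a main alpha2delta gene of the forebrain, was called in 6[4]10 (-0.10 ± 0.03, 0.000888) and Cacna2d2 in 2[4]6 (-0.16 ± 0.05, 0.01), each in 1 regimen of 3.

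The neighbouring gamma genes on chromosome 7 did not move together. Cacng7, Cacng8 and Cacng6 lie in this order within 3332955-3435667 (GRCm38), 22.5 and 8.55 kb apart, with 0 protein-coding genes between them. Cacng8, the TARP enriched in hippocampus, changed by -0.13 ± 0.04 (adjusted p = 0.0166), -0.30 ± 0.04 (2.51e-10) and -0.22 ± 0.05 (9.83e-05; -0.24 ± 0.03 without the library with striatal markers). Its lowest, median and highest levels in 6[4]10 were 116.3, 146.4 and 190.5 CPM in WT and 97, 120.1 and 146.6 CPM in zQ175 mice, with 12 of 32 zQ175 mice below every WT mouse. Its 2[4]6 call was lost without the mice numbered 1 or 3. Cacng7 was higher by 0.12 ± 0.02 (4.14e-06) in 6[4]10 and by 0.09 ± 0.03 (0.00724) in 2.6[8]10, and missed the threshold in 2[4]6 (0.08 ± 0.03, 0.0567); the median in 6[4]10 was 168.7 CPM in WT and 183.7 CPM in zQ175 mice.

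Cacng6, which is not a TARP, showed the largest fall of the set on the log2 scale among called changes, at a level near 1 CPM. Its lowest, median and highest levels were 0.543, 0.942 and 1.43 CPM in WT and 0.332, 0.711 and 1.1 CPM in zQ175 mice of 2[4]6. The levels in 6[4]10 were 0.411, 0.947 and 1.71 CPM in WT and 0.228, 0.53 and 0.925 CPM in zQ175 mice. The log2 changes were -0.47 ± 0.08 (adjusted p = 2.21e-05), -0.74 ± 0.12 (3.31e-07) and -0.82 ± 0.14 (3.98e-06; -0.86 ± 0.12 without the library with striatal markers, which held 1 read of it). The ranges overlapped, with 6 of 32 zQ175 mice below every WT mouse in 2[4]6 and in 6[4]10. In 2.6[8]10, 0 lay below with the library with striatal markers and 12 without it.

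Of the remaining TARPs, Cacng3 and Cacng2 were lower. Cacng3 changed by -0.09 ± 0.03 (adjusted p = 0.0328), -0.09 ± 0.03 (0.0119) and -0.11 ± 0.04 (0.0248), with WT and zQ175 medians of 62.3 and 59 CPM, 60.8 and 58 CPM, and 65.9 and 60.4 CPM. Among the 13 genes called in all 3 regimens, its calls were lost most often under the alternatives: the first was lost without the mice numbered 1 or 3, the second without those numbered 2, and the third without those numbered 1, 2 or 4. Its 2[4]6 and 2.6[8]10 calls were also lost with library number as a random effect. Cacng2, known as stargazin, was lower in 6[4]10 (-0.08 ± 0.02, 0.00371) and 2.6[8]10 (-0.13 ± 0.03, 0.000318). Cacng4 and Cacng5, neighbours 80 kb apart on chromosome 11, were not called.

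Untreated mice give the genotype contrast free of any siRNA, with 8 mice per group. Called lower and higher were 4 and 1 of 37 genes in 2[4]6 (2.29% and 1.86% of all genes), 10 and 1 in 6[4]10 (6.19% and 5.35%), and 9 and 1 in 2.6[8]10 (6.45% and 4.66%; 11 and 2 without the library with striatal markers). The share of the set called lower was above that of all genes in each regimen. Without the library with striatal markers, calls over all genes in untreated 2.6[8]10 mice rose as well, from 1762 to 2602. Atp2b1 changed by -0.34 ± 0.05 (adjusted p = 1.94e-05), -0.43 ± 0.07 (4.52e-06) and -0.42 ± 0.06 (1.66e-06), and all 8 untreated zQ175 mice lay below all 8 untreated WT mice in both 10-month regimens. Cacna1g was higher by 0.34 ± 0.10 (0.0289), 0.53 ± 0.08 (7.81e-07) and 0.43 ± 0.14 (0.0326), with 8 of 8 zQ175 mice above all WT mice in 6[4]10. Cacna1e in 2.6[8]10 changed by -0.32 ± 0.05 (1.96e-05), with 8 of 8 zQ175 mice below all WT mice, and Ryr1 in 6[4]10 by -0.40 ± 0.09 (0.00202), also with 8 of 8 below. The counts were not stable to fewer mice: without the mice numbered 2 or 3, 2 and 3 calls of 10 were left in 2.6[8]10, 6 without those numbered 4; without those numbered 4, 5 of 11 were left in 6[4]10; and without those numbered 1, 2 or 3, there were 3, 3 and 2 of 5 in 2[4]6.

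The genotype contrast was also made within each treatment. Over the 12 contrasts of zQ175 with WT, 1 for each regimen and treatment, which share no mice, 8 genes were lower in all 12 (Atp2b1, Cacna1e, Cacnb1, Cacnb2, Cacng2, Cacng6, Cacng8 and Ryr3) and Cacna1g and Cacng7 were higher in all 12. The share of all genes with 1 direction in all 12 is not given here. Under NTC 0 genes of the set were called higher and 6 lower in 2[4]6 (5.23% of all genes called in either direction), 3 and 12 in 6[4]10 (14.7%), and 2 and 5 in 2.6[8]10 (10.4%; 9 lower without the library with striatal markers). Under HTT-10150 these were 0 and 1 (6.59%), 3 and 10 (15.3%), and 2 and 9 (9.11%), the last 9 falling to 4 without that library. Under HTT-634.486 they were 0 and 4 (2.14%), 2 and 13 (17.1%), and 0 and 4 (1.96%; 5 lower without that library). Without that library the share of all genes called in 2.6[8]10 moved too, to 15.1% under NTC, 7.92% under HTT-10150 and 4.54% under HTT-634.486. Summed over regimens, the 28 calls under NTC fell to 17 without the mice numbered 4, the 25 under HTT-10150 to 16 without those numbered 1, and the 23 under HTT-634.486 to 15 and 10 without those numbered 1 or 3.

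The genotype effect differed between 6[4]10 and 2[4]6 for 7 genes, tested as a difference in a fit of all 192 libraries (7.27% of all genes called). Atp2b1 differed by -0.19 ± 0.04 (adjusted p = 0.00261), Cacna2d1 by -0.17 ± 0.04 (0.00799), Cacna1g by 0.27 ± 0.08 (0.0151), Cacnb1 by -0.13 ± 0.04 (0.023), Ryr1 by -0.25 ± 0.08 (0.0377), Cacna1e by -0.14 ± 0.05 (0.0418) and Cacng8 by -0.17 ± 0.06 (0.0498). For 6 of them the change was larger in 6[4]10; Cacna2d1 was at 0.06 ± 0.03 (not called) in 2[4]6 and at -0.10 ± 0.03 in 6[4]10. Age at collection and age at dosing differ together between these regimens and cannot be told apart. Between 2.6[8]10 and 2[4]6 (1.29% of all genes called) only Ryr1 passed (-0.29 ± 0.08, 0.0456), and not without the library with striatal markers (-0.21 ± 0.07, 0.0954). Without that library 1 gene of the set had a called positive difference between these regimens, and 0 a negative one (1.94% of all genes called). DESeq2 and limma-voom each called 1 positive difference with all libraries in. Between 6[4]10 and 2[4]6, 1 positive and 8 negative differences were called without that library (9.14% of all genes). Between the regimens collected at 10 months (0.385% of all genes called) edgeR called 0 of the 37. Over the 3 regimen differences and 37 genes, 25 of 111 tests had an unadjusted p under 0.05, and DESeq2 called 9 and limma-voom 7. Leaving out the mice numbered 2 left 0 of the 8 calls, and leaving out those numbered 4 left 2.

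Small interfering RNAs changed few of the genes. Against NTC, HTT-10150 gave 6 calls in 222 tests (37 genes, 3 regimens, 2 genotypes; 1.33% of all gene tests) and HTT-634.486 gave 2 (0.625%). NTC against untreated gave 0 (0.283% of all gene tests; 26 of 222 at an unadjusted p under 0.05; DESeq2 called 2 and limma-voom 0). The genotype by siRNA interaction gave 0 (0.00307%; 20 of 222 at an unadjusted p under 0.05; DESeq2 called 2 and limma-voom 0). Both active treatments share their NTC mice, so their contrasts are not independent. Against NTC, HTT-10150 gave 0 calls without the mice numbered 1 and 3 without those numbered 2. HTT-634.486 gave 0 without those numbered 3 and 1 without those numbered 1 or 4, and NTC against untreated gave 4 without those numbered 3.

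Cacna2d4, a low-abundance alpha2delta gene best known from retina (ENSMUSG00000041460, chromosome 6: 119236526-119352407, GRCm38), made up 4 of these 8 calls. In 2.6[8]10 zQ175 mice its lowest, median and highest levels were 0.888, 1.02 and 1.58 CPM under NTC, 1.66, 2 and 3.25 CPM under HTT-10150, and 1.69, 2.11 and 2.92 CPM under HTT-634.486. All 8 mice of either active group lay above all 8 NTC mice. The log2 change was 0.95 ± 0.21 for HTT-10150 (adjusted p = 0.00852; 0.871% of all genes called) and 0.94 ± 0.21 for HTT-634.486 (0.00522; 2.04%). In WT mice of this regimen it was 1.02 ± 0.21 for HTT-10150 (0.00258; 3.41%; 0.90 ± 0.21 and 0.014 without the library with striatal markers) and 0.78 ± 0.21 for HTT-634.486 (0.0582; 0.033 without that library). Among 6[4]10 zQ175 mice HTT-634.486 stood at 2.48 ± 0.561 CPM and NTC at 1.47 ± 0.269 CPM (SD, n = 8; log2 change 0.75 ± 0.16, adjusted p = 0.0125; 0.959% of all genes called). Microglia markers moved in some of these contrasts. Under HTT-10150 in 2.6[8]10, 4 of 6 were called higher in WT (median log2 change 0.26) and 3 of 6 in zQ175 mice (median 0.17), and 0 lower. Under HTT-634.486 in zQ175 mice, 1 was higher and 2 were lower in 2.6[8]10 (median 0.03), and 1 was higher and 1 lower in 6[4]10 (median -0.06). Their part in the Cacna2d4 changes was not tested.

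Untreated mice also had more Cacna2d4 than NTC mice on average. In 2.6[8]10 the untreated groups stood at 1.88 ± 0.667 CPM (zQ175) and 2.03 ± 0.549 CPM (WT), above NTC at 1.13 ± 0.265 and 1.16 ± 0.316 CPM. NTC against untreated was -0.72 ± 0.21 in zQ175 (adjusted p = 0.079; 0.0444 without the library with striatal markers) and -0.81 ± 0.21 in WT mice (0.0518; 0.0267 without it). Against untreated mice, neither active treatment was called for Cacna2d4 in any regimen or genotype; in zQ175 mice of 2.6[8]10 the change was 0.23 ± 0.20 for each. The NTC mean was below the untreated mean in all 6 combinations of regimen and genotype. Lrtm2, on the other strand within the span of Cacna2d4, shares 0 exon bases with it. Lrtm2 was called once against NTC, for HTT-10150 in 2.6[8]10 WT mice (0.36 ± 0.11, adjusted p = 0.0458; 0.418 without the library with striatal markers).

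**Figure D5:**
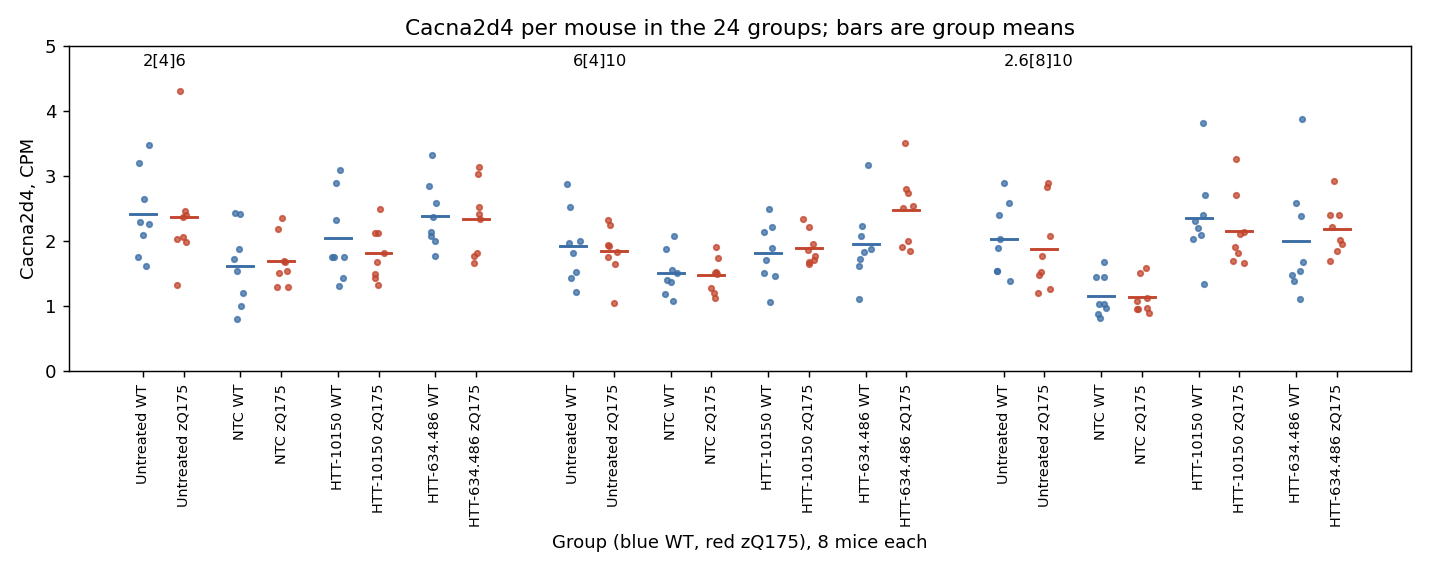
Level of Cacna2d4 in each mouse, in CPM, by regimen, genotype and treatment (8 mice per group), with a line at each group mean. In 2.6[8]10 zQ175 mice the NTC group (0.888 to 1.58 CPM) lies below both active siRNA groups, and the untreated group (1.2 to 2.9 CPM) overlaps the active groups.

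The other 4 calls against NTC were in HTT-10150 mice. In zQ175 mice of 2[4]6 (3.57% of all genes called), Cacna2d1 was at 237.3 ± 19.8 CPM against 201.8 ± 21.8 CPM under NTC (0.23 ± 0.06, adjusted p = 0.0186) and Atp2a2 at 774 ± 35.5 against 683 ± 47.6 CPM (0.18 ± 0.05, 0.0263). The untreated zQ175 mice of this regimen were at 232.4 ± 23.2 and 738 ± 44 CPM. In the same contrast all 5 endothelial markers were called higher (median log2 change 0.41), as was 1 of 7 astrocyte markers (median 0.04). For NTC against untreated in zQ175 mice of 2[4]6, the endothelial median was -0.27 and the astrocyte median 0.04, with 0 called. The part of these markers was not tested. In WT mice of 2.6[8]10, Cacng4 (0.77 ± 0.22, 0.0311) and Cacng2 (0.20 ± 0.06, 0.0341) were called, and neither was without the library with striatal markers (0.03 ± 0.07, 0.904, and 0.15 ± 0.06, 0.17).

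Against untreated mice the active treatments gave 8 calls, 1 for HTT-10150 and 7 for HTT-634.486, in 222 tests each. This was about the share over all gene tests (1.78%). In 2[4]6 zQ175 mice given HTT-634.486 (6.58% of all genes called) 4 of 5 called genes were lower. Most calls over all genes were lower there too, 754 of 1091. Itpr1 changed by -0.19 ± 0.06 (397 ± 53.5 against 454 ± 36.8 CPM, adjusted p = 0.0395), Ryr2 by -0.24 ± 0.07 (0.036), Atp2a2 by -0.15 ± 0.05 (0.0469) and Cacna1b by -0.21 ± 0.06 (0.0249), while Cacng2 was higher by 0.19 ± 0.05 (0.0163). In 6[4]10 zQ175 mice given HTT-634.486 (3.9% of all genes called), Atp2b1 was at 653 ± 48.8 CPM against 765 ± 52 CPM in untreated mice (-0.23 ± 0.07, 0.0448), and 7 of 8 mice lay below all untreated mice. Cacna1s, at 0.538 ± 0.122 against 0.31 ± 0.0813 CPM, was higher by 0.84 ± 0.23 (0.0305). In 2.6[8]10 WT mice given HTT-10150 (4.26% of all genes called) Cacng4 was called (0.82 ± 0.22, 0.0206), and was not without the library with striatal markers (0.08 ± 0.07, 0.666).

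Between the sexes 2 genes differed. Males had more Cacnb2 in 2[4]6 (0.08 ± 0.02, adjusted p = 0.0217; 6.71% of all genes called) and more Itpr3 in 6[4]10 (0.24 ± 0.06, 0.0378; 1.15%), 2 calls in 111 tests (3.21% of all gene tests), of which 1 was left when the mice of any 1 number were left out. The genotype effect differed between the sexes for 4 genes in 6[4]10 (5.39% of all genes called), of 111 tests in all (2.02% of all gene tests). For Cacna1c the means in females were 119 ± 11.6 CPM in WT and 108 ± 12.8 CPM in zQ175, and in males 106 ± 12.4 and 119 ± 12 CPM (SD, n = 16; male minus female difference of the log2 changes 0.31 ± 0.07, adjusted p = 0.0099). For Itpr1 they were 484 ± 45.9 and 371 ± 56.6 CPM in females and 434 ± 49.3 and 398 ± 41.6 CPM in males (0.26 ± 0.08, 0.0478). Itpr3 (-0.40 ± 0.12, 0.035) and Cacna2d4 (-0.49 ± 0.15, 0.0441) differed in the other sense. Without the 3 libraries of discordant sex Itpr1 (0.0561) and Cacna2d4 (0.053) were not called, and without the mice numbered 3 none of the 4 was.

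Other genes of calcium handling were counted from lists, averaged over treatments, and are read against the share of all genes called lower (10.9%, 19.8% and 16.9% in the 3 regimens) and higher (10.6%, 21.5% and 15.2%). Of 23 genes of store-operated entry, exchangers and mitochondrial calcium, 4, 9 and 7 were lower and 5, 6 and 3 higher in the 3 regimens, with a list median within 0.01 of 0 (6 higher in 2.6[8]10 without the library with striatal markers). Orai2 and Orai3, pore subunits of store-operated entry, changed by -0.17 ± 0.04 (adjusted p = 0.000551) and -0.20 ± 0.02 (3.36e-09) in 2[4]6 and by -0.42 ± 0.03 (1.35e-16) and -0.33 ± 0.02 (1.39e-17) in 6[4]10. The exchangers Slc8a2 and Slc24a2 fell in 6[4]10 by -0.28 ± 0.03 (2.93e-11) and -0.34 ± 0.04 (8.96e-12). Of 28 tested genes of the store and its junctions, 8, 10 and 13 were lower and 2, 5 and 3 higher (14 and 4 in 2.6[8]10 without that library), with a median of -0.04, -0.03 and -0.09. The scaffold Homer3 changed by -0.38 ± 0.04, -0.61 ± 0.05 and -0.51 ± 0.07 (largest adjusted p 3.44e-08), and Jph1, a junctophilin that ties the store to the plasma membrane, by -0.21 ± 0.03, -0.35 ± 0.04 and -0.33 ± 0.04 (largest adjusted p 2.14e-06).

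Partners of the voltage-gated channels were called in 1 direction with all libraries in. Of 21 tested, 10 and 13 were lower in 2[4]6 and 6[4]10, and 12 of 20 in 2.6[8]10, with 0 higher (2 without the library with striatal markers) and a list median of -0.08, -0.20 and -0.16. The calcineurin genes Ppp3ca and Ppp3r1 changed by -0.42 ± 0.03 (adjusted p = 4.26e-20) and -0.41 ± 0.02 (5.76e-22) in 6[4]10. Of 15 other AMPA receptor auxiliary genes 8, 9 and 8 were lower (11 in 2.6[8]10 without that library) and 2, 1 and 1 higher, with a median of -0.12, -0.22 and -0.20. In 6[4]10 the pentraxin receptor Nptxr changed by -0.54 ± 0.03 (8.89e-22), and Cnih3, a cornichon that slows AMPA receptor gating, rose by 0.30 ± 0.03 (8.63e-13), 0.42 ± 0.03 (5.99e-21) and 0.44 ± 0.07 (1.48e-06) in the 3 regimens. Of 23 genes of IP3 production and Gq signalling 9, 9 and 10 were lower and 0, 1 and 3 higher (9 and 4 in 2.6[8]10 without that library), with a median of -0.06, -0.01 and -0.09. Of this list Itpka had the smallest adjusted p, with changes of -0.39 ± 0.03, -0.64 ± 0.04 and -0.52 ± 0.04 in the 3 regimens (largest adjusted p 1.1e-14). Also lower were the muscarinic receptors Chrm1 (-0.29 ± 0.03, 1.77e-12) and Chrm3 (-0.33 ± 0.04, 2.74e-09) in 6[4]10.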

How the data were processed

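RNA sequencing of hippocampus was deposited as 1 table with a column for each of 192 mice. Its values are expected counts (reads estimated per gene), deposited by the authors; the submitters' processing notes name RSEM and GRCm38. Versions, aligner, annotation release and strand setting: not given in the sources used here. Every value in the table was whole (100%), so none was rounded. Of 41135 features, 41128 carry an Ensembl identifier, 40254 of them found in GENCODE vM21, which gave names, positions and exon lengths; 7 other features (6.85e-06% of counts) were left out. Libraries were polyA-selected, per the labels.

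Each regimen was fitted on its own (64 libraries, 8 groups, sex as a covariate) in edgeR 4.0.16 (R 4.3.3, quasi-likelihood test), after filterByExpr (minimum count 10) and TMM scaling. This left 16575, 16374 and 15852 genes in 2[4]6, 6[4]10 and 2.6[8]10, of which 37 of the 39. P-values were adjusted by Benjamini-Hochberg over all genes of a contrast, and a gene was called at an adjusted p under 0.05; each adjusted p printed is from this test, and each error of a log2 change is a standard error. Differences between regimens were fitted on all 192 libraries (16627 genes). CPM uses TMM factors; CPM per kilobase divides by merged exon length. Each library is a separate sample by its labels, so p-values measure the spread between these samples. The procedure was also run on counts simulated for the 2[4]6 libraries with known changes, with the outcome not given here. Those counts were drawn independently for each mouse, so the run cannot speak to mice that share a number. Alternatives were DESeq2 1.42.0, limma-voom (limma 3.58.1), other scaling and filters, no sex covariate, a replicate or library-number block, only the groups compared, and libraries left out (leaving out the library with striatal markers, alone or with the 3 of discordant sex, and the random effect of library number were chosen after seeing the data); "the mice numbered n" are female n and male n of every group. Numbers in the labels share no stated origin.

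The members are all genes that match the symbol rule, which used no measured value; this set and the other lists were picked for description with earlier results of these data known. Genes called in all 3 regimens in 1 direction, and those called in an siRNA, regimen or sex contrast, are given with full values. The genes named from each list are among its 4 of smallest adjusted p. Promoters are from RefSeq; protein sequence was not used here.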

Additional observations from a re-analysis of the deposited data

Results flagged for a closer look

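Within each of the 24 groups of 8 mice, the gap between the highest or lowest mouse and the next, over the group's whole range, was set against Dixon's 95% critical value for 21 genes. Of these 504 tests 40 were past it, where chance gives about 1 in 20 groups. Of these cases 26, or 5.16% of the tests, are listed as values further below. The 21 genes were read in the same mice, so the tests are not independent and this share cannot be set against 1 in 20. Some mice recur, such as 2[4]6 WT Untreated male 4 (Cacna1g, Cacnb2 and Cacng4) and WT NTC female 4 (Cacna1g and Cacng4). The other 14 cases came from the library with striatal markers (2.6[8]10 WT HTT-10150 female 1). It was the highest of its group, in CPM with the next mouse in brackets, for Atp2b1 1388 (1039.9), Atp2b2 805.4 (444.9), Cacna2d3 247.2 (91.3), Cacnb1 208.9 (151.2), Cacnb2 85.3 (61.4), Cacng3 108.6 (73), Cacng4 178.6 (29.6), Itpr1 1139 (496), Ryr1 139.7 (54.9) and Ryr3 223.5 (137.8). It was the lowest for Cacna1g 10.2 (51.6), Cacna2d1 107.9 (180.6), Cacng8 57.5 (121.5) and Ryr2 92.4 (278.9).

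The other cases in 2[4]6 are given by level against that of the next mouse, in CPM. Cacna1g was at 103.7 against 69.6 in WT Untreated male 4 and at 84 against 69.7 in WT NTC female 4. Cacna2d1 was at 281.8 against 243.3 in zQ175 HTT-10150 male 4. Cacna2d4 was at 4.3 against 2.46 in zQ175 Untreated female 4. Cacnb2 was at 76.6 against 65.2 in WT Untreated male 4. Cacng3 was at 81.3 against 67.2 in WT Untreated female 3 and at 69.1 against 60.9 in WT NTC male 4. Cacng4 was at 39.1 against 25.5 in WT Untreated male 4 and at 33 against 27.3 in WT NTC female 4. Itpr1 was at 278.1 against 374.9 in zQ175 HTT-634.486 male 3. Ryr1 was at 35.6 against 43.1 in zQ175 HTT-634.486 female 1. Ryr3 was at 86.2 against 107.8 in WT HTT-634.486 male 1. Fewer cases were found in 6[4]10, also in CPM. Cacna1e was at 500.9 against 430.4 in zQ175 Untreated male 3 and at 337.8 against 432.6 in WT HTT-10150 male 3. Cacna1g was at 44.6 against 61.6 in WT HTT-634.486 male 4. Cacng3 was at 70.5 against 63.3 in WT NTC male 2. Ryr1 was at 25.5 against 35.7 in zQ175 HTT-634.486 male 4 and at 54.3 against 38 in zQ175 HTT-10150 female 3. Ryr2 was at 241.95 against 314.4 in WT HTT-10150 male 3. The remaining cases, in CPM, were mice of 2.6[8]10. Atp2a2 was at 776.7 against 717.4 in zQ175 Untreated female 3 and at 674.9 against 771.5 in WT Untreated male 4. Atp2b1 was at 881.4 against 775.7 in zQ175 Untreated male 4. Cacna1c was at 99 against 110.6 in zQ175 Untreated male 1. Cacnb2 was at 54 against 50.5 in zQ175 HTT-634.486 male 4. Cacng3 was at 70.1 against 60.4 in zQ175 Untreated male 1. Ryr3 was at 135.1 against 116.3 in zQ175 HTT-634.486 male 3.

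The genotype effect differed between males and females of 6[4]10 for 4 genes, by 0.26 for Itpr1, 0.31 for Cacna1c, -0.49 for Cacna2d4 and -0.40 for Itpr3 (male minus female, log2 scale, edgeR). It differed between 6[4]10 and 2[4]6 by -0.14 for Cacna1e, -0.17 for Cacna2d1, -0.17 for Cacng8, -0.25 for Ryr1, -0.19 for Atp2b1, 0.27 for Cacna1g and -0.13 for Cacnb1, and between 2.6[8]10 and 2[4]6 by -0.29 for Ryr1.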

How the results depend on the processing

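For the 13 genes called in all 3 regimens, 552 of 582 alternative values kept the call, 30 kept the direction and missed the threshold, and 0 reversed. Of 334 other values of single calls most kept the call, 99 missed the threshold and 1 reversed: Cacng4 under HTT-10150 against NTC in WT mice of 2.6[8]10, from -0.01 (without replicate 1) to 0.98 when the mice of 1 number were left out (0.77 with all mice); the mice numbered 1 include the library with striatal markers. Leaving out the female and male of 1 number, the averaged genotype calls ranged from 8 to 14 (15 with all mice) in 2[4]6, 23 to 24 (24) in 6[4]10 and 17 to 20 (20) in 2.6[8]10. In untreated mice they ranged from 2 to 4 (5), 5 to 12 (11) and 2 to 10 (10), under NTC from 17 to 21 (28), under HTT-10150 from 16 to 21 (25) and under HTT-634.486 from 10 to 21 (23). For the other contrasts the ranges were 0 to 4 (0) for NTC against untreated, 0 to 4 (6) and 0 to 2 (2) for HTT-10150 and HTT-634.486 against NTC, 0 to 0 (0) for the interaction, 1 to 1 (2) for sex, 0 to 6 (8) for regimen differences and 0 to 6 (4) for genotype by sex. The fit of only the 2 groups compared gave 3 calls in untreated 2[4]6 mice, 13 under HTT-10150, 1 for NTC against untreated and 3 for HTT-10150 against NTC. DESeq2 gave 2 for NTC against untreated, 10 for HTT-10150 against NTC, 2 for the interaction and 7 for genotype by sex. A minimum mean of 1 CPM gave 1 for NTC against untreated and 10 for HTT-10150 against NTC, and no filter gave 1 for sex, 4 for regimen differences and 1 for genotype by sex. Without the library with striatal markers NTC against untreated gave 2 and HTT-634.486 against NTC 4; without it and the 3 of discordant sex, NTC against untreated gave 1 and genotype by sex 2. Without the latter 3 alone, regimen differences gave 5 and genotype by sex 2. With library number as a random effect (limma-voom; correlation 0.0402 to 0.136 over 7 fits) 4 of the 39 averaged calls of the 13 genes missed the threshold (Cacna1e and Cacng3 in 2[4]6, Cacng3 and Ryr2 in 2.6[8]10), NTC against untreated gave 1, sex 1, regimen differences 3 and genotype by sex 1; as a fixed block, HTT-634.486 against NTC gave 1, and genotype contrasts could not be fitted, since each number holds mice of 1 genotype. Against untreated mice in place of NTC, HTT-10150 gave 1 and HTT-634.486 gave 7. The cause of these shifts was not tested. With the replicate block the averaged calls were 16, 25 and 21, NTC against untreated gave 1, and no other count moved by over 1.5 times. The labels state no shared origin for a number, and the main fit treats same-numbered mice as independent. Between 41.1% and 42.9% of same-numbered pairs correlated over 0.1. The share for pairs of other numbers is not given here, so these values cannot decide for or against pairing. Same-numbered mice did deviate together somewhat: their mean r was 0.021, 0.0556 and 0.0601, against -0.00525, -0.0168 and -0.0186 for other numbers, and 22, 31 and 34 of 64 libraries correlated best with their own number, where chance gives 16. Depth limits the low genes most, such as Cacng6, Cacna1s and Atp2a1, each with a median under 1 CPM in WT mice of 2[4]6.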
